A study of Mus musculus with 6 samples.

Results

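Small cell lung cancer surface targets are proteins of the cell membrane at which antibodies, T cell engagers, drug conjugates or imaging agents for this tumour have been aimed. The 8 genes described here, Dll3, Cd276, Sstr2, Ncam1, Sez6, Sez6l2, Cadm1 and Epcam, were taken by name from a list of such proteins, and all 8 stood among the 19639 genes of the count table. They were measured by bulk RNA sequencing in 6 lung libraries of RPM mice, a name that in this field denotes deletion of Rb1 and Trp53 with overexpression of Myc. All 6 libraries share that background. In 3 libraries the mice had been infected with lentivirus carrying a control hairpin (shControl), and in 3 with lentivirus carrying a hairpin against Thoc1 (shThoc1), which encodes a subunit of the THO complex of mRNA export. The labels give neither the strain, age and number of animals, the time after infection, the cells that took up the virus, nor the tumour content of each lung. The titles of shThoc1 replicates 2 and 3 begin with the same number, which could mark 1 animal, so n = 3 counts libraries. Nor do the labels tell if any library is 1 animal, so the spread behind every p-value is that of these samples and may be technical.

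Small cell lung cancer is a neuroendocrine tumour, and much of its surface is that of a neuron or an endocrine cell. Dll3 is a Notch ligand that acts inside its own cell against Notch signalling and reaches the surface in neuroendocrine tumours. Sez6 and Sez6l2 are neuronal membrane proteins of one family, Ncam1 (CD56) and Cadm1 are immunoglobulin-type adhesion molecules, and Sstr2 is a receptor for the hormone somatostatin. Cd276 (B7-H3) belongs to the B7 family of immune regulators and is found on many tumours and on tumour vessels and stroma. Epcam is an adhesion molecule of nearly all simple epithelia, the normal alveolar and airway lining included. In a bulk lung sample, fewer cells of a type and less RNA per cell cannot be told apart, and this holds for every level below.

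RefSeq promoters were at hand for 4 of the 8 genes (Dll3, Cd276, Sstr2 and Epcam), on build GRCm38.p6, which is not the build of the counts. The first 3 of these were the lower ones in shThoc1, and the 250 bases before their start sites are printed so that their unlike make-up can be seen. They lie at chr7:28301786-28302035 on the minus strand for Dll3, chr11:113619077-113619326 on the plus strand for Sstr2 and chr9:58555034-58555283 on the minus strand for Cd276. Capitals mark every match to the motifs that were searched on both strands.
Dll3: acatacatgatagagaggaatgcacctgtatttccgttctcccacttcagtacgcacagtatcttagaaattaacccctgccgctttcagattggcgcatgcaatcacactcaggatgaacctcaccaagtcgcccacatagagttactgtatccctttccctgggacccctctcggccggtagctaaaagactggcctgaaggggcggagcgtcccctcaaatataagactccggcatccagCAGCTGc
Sstr2: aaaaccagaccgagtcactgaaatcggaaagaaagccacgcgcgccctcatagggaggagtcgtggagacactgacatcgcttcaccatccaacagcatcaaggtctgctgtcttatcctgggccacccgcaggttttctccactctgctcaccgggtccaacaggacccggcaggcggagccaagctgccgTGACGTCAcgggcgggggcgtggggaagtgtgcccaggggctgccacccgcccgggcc
Cd276: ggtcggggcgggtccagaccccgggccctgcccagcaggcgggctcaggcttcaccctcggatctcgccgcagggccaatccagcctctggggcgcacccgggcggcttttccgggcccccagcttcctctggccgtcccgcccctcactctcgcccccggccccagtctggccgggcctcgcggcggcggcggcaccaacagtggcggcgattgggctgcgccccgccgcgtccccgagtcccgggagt
The motifs were the E-box CAGCTG, the E-box of Myc-type factors, which reads CACGTG, the E-box of Neurod-type factors, which reads CAGATG, the TATA-type element, which reads TATAAA, and the cAMP response element, which reads TGACGTCA. None of these overlapped another in a printed promoter. Dll3 held CAGCTG, a sequence that basic helix-loop-helix factors are known to bind, 7 bases before the start, and 12.8% of 27025 promoter windows of this length hold it. Sstr2 held TGACGTCA 58 bases before the start, which 1.62% of the windows hold, but this motif was added to the search after the Sstr2 sequence had been read. None of the motifs was in the Cd276 or Epcam window, while CACGTG stands in 6.05% of all windows, CAGATG in 14.5% and TATAAA in 13.0%. The G and C content was 52% for Dll3, 63.6% for Sstr2, 77.6% for Cd276 and 56.4% for Epcam, against a median of 52% over all windows.

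The depth was 9934583 to 15025199 counts in a library, and levels are given as CPM, the count of a gene relative to the scaled total of its library. Thoc1 stood at 80.2 to 85.8 CPM in shControl, against 53.4 to 69.5 CPM in shThoc1, without overlap (log2 fold change −0.45, edgeR adjusted p = 0.304). Within both groups 1 library stood apart. Neuroendocrine markers other than the surface targets, 38 genes, summed to 3410 and 3063 CPM in shControl replicates 1 and 3 but to 403 CPM in shControl replicate 2. In shThoc1 they summed to 395, 674 and 445 CPM, with the highest value in replicate 2, the shallowest library. The same shThoc1 replicate 2 held 1161 CPM of T cell markers against 37.1 to 98.2 CPM in the other 5 libraries, 799 CPM of alveolar type 2 markers against 7021 to 22985 CPM, and 292 CPM of endothelial markers against 911 to 3767 CPM. Fat genes also stood out there, with 3657 counts of Ucp1 against 1 to 8 in the other 5 libraries. For Adipoq there were 1492 counts against 0 to 97. Within the neuroendocrine sums Nkx2-1 alone held 198, 147 and 146 CPM in shControl, against 188, 39.7 and 249 CPM in shThoc1. Its log2 fold change was −0.04. By the median log2(CPM + 0.5) of the 38 genes, shControl replicate 2 stood at 1.93, above shThoc1 replicates 1 and 3 at 0.17 and 0.44. The sums of these libraries are nearly equal and do not show this step. Values without 1 library are given below where that library moved them most.

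No surface target was called between the groups by edgeR's quasi-likelihood test at an adjusted p under 0.05, and neither was any other gene (0% of the 15287 tested). The smallest adjusted p of any gene was 0.304, and 2473 genes had an unadjusted p under 0.05. Of the 8 surface targets, all tested, 6 had a log2 fold change below 0 (Dll3, Cd276, Sstr2, Ncam1, Sez6 and Sez6l2) and 2 above 0 (Cadm1 and Epcam). Their median was −2.70, against 0.03 over all tested genes, of which 47.9% were below 0. An unadjusted p under 0.05 was reached in the lower direction by 4 of the 8 (Cd276, Sstr2, Ncam1 and Sez6l2), against 9.24% of all genes, and in the higher direction by 0 of the 8, against 6.93%. The groups did not overlap, with shThoc1 lower, for 2 of the 8 (Cd276 and Sstr2), against 10.5% of all genes. For 0 of the 8 did they separate with shThoc1 higher, which held for 11.1% of all genes. In the authors' deposited table, whose columns are those of DESeq2, 4 of the 8 had an adjusted p under 0.05, all lower in shThoc1, against 3.69% of the 16010 genes with an adjusted p there.

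**Figure D1:**
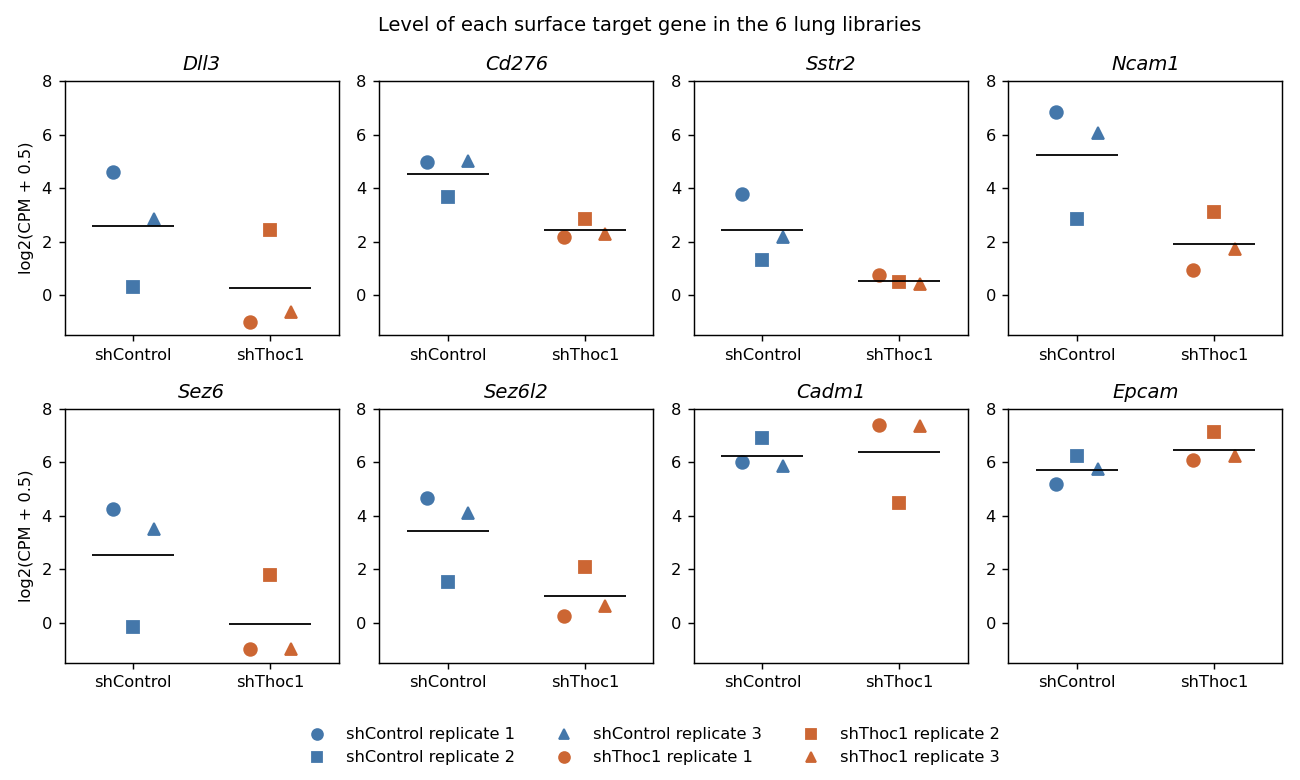
Level of each surface target, as log2(CPM + 0.5), in the 3 shControl (blue) and 3 shThoc1 (orange) libraries, with the marker shape giving the replicate and the bar the group mean. Only Cd276 and Sstr2 show groups that do not overlap, while shControl replicate 2 (blue square) and shThoc1 replicate 2 (orange square) leave their groups for Dll3, Ncam1, Sez6 and Sez6l2.

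Dll3, the Notch ligand, was present at 23.6, 0.717 and 6.74 CPM in shControl replicates 1, 2 and 3, and at 0, 4.84 and 0.149 CPM in shThoc1 replicates 1, 2 and 3. The 2 highest levels were in control libraries, but shControl replicate 2 lay under shThoc1 replicate 2, so the groups overlapped. The means were 10.3 ± 11.9 and 1.66 ± 2.75 CPM (SD, n = 3 each), 16.1% of the control level. The log2 fold change was −2.67 (SE 1.88), and edgeR's quasi-likelihood test gave an adjusted p of 0.470. In shThoc1 replicate 1 the count was 0. With a floor of 3 counts (0.208 CPM in that library, counting error only) the shControl mean was at least 49.6-fold higher than this 1 library. That mean rested mainly on shControl replicates 1 and 3, as shControl replicate 2, at 0.717 CPM, lay near the floor. The value rested on single libraries, since the log2 fold change was −7.05 without shThoc1 replicate 2, −1.31 without shControl replicate 1, −1.96 without shThoc1 replicate 1 and −1.996 without shThoc1 replicate 3. The authors' deposited table gave −2.68 with an adjusted p of 0.361.

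The canonical Notch ligands, which signal to a neighbouring cell, did not share the order of Dll3. Jag2 was the exception in direction, at 95.3, 46.4 and 86.3 CPM in shControl, against 45.7, 31.5 and 39.9 CPM in shThoc1 (log2 fold change −0.96, edgeR adjusted p = 0.304). Dll1, Dll4 and Jag1 had log2 fold changes of 0.97, 0.27 and 0.60. Among the receptors, Notch1 stood at 60.2 ± 9.67 CPM in shControl, against 107 ± 59.3 CPM in shThoc1 (SD, n = 3 each), with overlap and a log2 fold change of 0.83 (edgeR adjusted p = 0.397). Of 7 genes that read out Notch signalling or the non-neuroendocrine state, 6 lay above 0 on the log2 fold change scale, their list median was 0.61, and 0 reached an unadjusted p under 0.05. The 2 with the smallest p were Rest, a repressor of neuronal genes, at 26.8 ± 12.5 and 41.0 ± 5.46 CPM, and Hes1, a direct Notch target, at 25.6 ± 9.26 and 46.6 ± 23.4 CPM (SD, n = 3 each, shControl first). Heyl, at 30.0, 35.4 and 39.5 CPM in shControl, against 24.8, 7.80 and 28.9 CPM in shThoc1, was the 1 gene of this list below 0 (log2 fold change −0.77). The median log2(CPM + 0.5) of the 7 genes was 4.72, 5.16 and 5.00 in shControl, against 5.56, 4.36 and 5.50 in shThoc1. Thus shThoc1 replicate 2 lay below every control, and only replicates 1 and 3 lay above them. Notch1 was also lowest in shThoc1 replicate 2, at 41.6 CPM, whereas Rest was highest there, at 47.2 CPM.

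Sez6, the target of a drug conjugate in this tumour, had the lowest level per length of exon of the surface targets. It was present at 18.4, 0.398 and 10.8 CPM in shControl replicates 1, 2 and 3, and at 0, 2.96 and 0 CPM in shThoc1 replicates 1, 2 and 3. As for Dll3, shThoc1 replicate 2 lay above shControl replicate 2, and the lowest 2 libraries, here both at 0, were shThoc1 replicates 1 and 3. The means were 9.86 ± 9.04 and 0.988 ± 1.71 CPM (SD, n = 3 each), and the log2 fold change was −3.37 (SE 2.02, edgeR adjusted p = 0.409). It was −2.66 without shControl replicate 1, −2.64 without shThoc1 replicate 1 and −2.65 without shThoc1 replicate 3. Without shThoc1 replicate 2 it was −10.1, but both shThoc1 libraries left were then at 0, so that this fitted value is no bound. Against the floor of 3 counts per library, the shControl mean was at least 47.3-fold higher than shThoc1 replicate 1. It was at least 44.2-fold higher than shThoc1 replicate 3. That mean rested mainly on shControl replicates 1 and 3, as shControl replicate 2, at 0.398 CPM, lay near the floor (0.208 CPM in shThoc1 replicate 1).

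Sez6l2, a relative of Sez6, was detected in every library. Its levels were 24.9, 2.39 and 16.7 CPM in shControl, against 0.695, 3.75 and 1.04 CPM in shThoc1. Again shThoc1 replicate 2 alone lay in the range of the controls, above shControl replicate 2. The means were 14.7 ± 11.4 and 1.83 ± 1.68 CPM (SD, n = 3 each), 12.5% of the control level, with a log2 fold change of −3.02 (SE 1.05, edgeR unadjusted p = 0.0277, adjusted p = 0.304), or −4.13 without shThoc1 replicate 2. The authors' deposited table gave −3.04 with an adjusted p of 0.0379. Exons of Sez6l2 overlap those of the transcript Gm21984 on the same strand over 9.81% of their length, so a share of its reads could belong to either. The third gene of the family, Sez6l, had 0 to 15 counts in a library and was not tested.

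Ncam1, the clinical marker CD56, had the lowest log2 fold change of the 8 genes. Its levels were 113, 6.61 and 66.6 CPM in shControl, against 1.39, 8.10 and 2.82 CPM in shThoc1. Both shControl replicates 1 and 3 were far above every shThoc1 library, and shControl replicate 2 lay within the shThoc1 range. The means were 62.1 ± 53.3 and 4.10 ± 3.53 CPM (SD, n = 3 each), 6.61% of the control level, with a log2 fold change of −3.93 (SE 1.17, edgeR unadjusted p = 0.0150, adjusted p = 0.304). Leaving out 1 library at a time kept it between −4.94, without shThoc1 replicate 2, and −3.27, without shControl replicate 1. The authors' deposited table gave −3.95 with an adjusted p of 0.00573. Its paralogue Ncam2 had 1 to 10 counts in a library and was not tested. St8sia2 and St8sia4, the enzymes that add polysialic acid to Ncam1, had log2 fold changes of −0.70 and 0.36.

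Cadm1, the other adhesion molecule, went another way. It was present at 63.1, 118 and 56.7 CPM in shControl replicates 1, 2 and 3, and at 166, 21.5 and 163 CPM in shThoc1 replicates 1, 2 and 3. The highest and the lowest level both lay in shThoc1, and shControl replicate 2, low in the neuroendocrine genes above, was the highest control. The means were 79.2 ± 33.6 and 117 ± 82.4 CPM (SD, n = 3 each), and the log2 fold change was 0.56 (SE 0.75, edgeR adjusted p = 0.693), or 0.98 without shThoc1 replicate 2. On the log2(CPM + 0.5) scale the exact permutation test, two-sided, gave p = 0.9. Over the libraries the level of Cadm1 was lowest where the summed alveolar type 2 markers (799 CPM) and endothelial markers (292 CPM) were lowest, in shThoc1 replicate 2, and the part of these cells in the result was not tested. Of its paralogues, named here after their values were seen, Cadm2 and Cadm4 were highest in shControl replicates 1 and 3 and next in shThoc1 replicate 2, as Dll3 and Ncam1 were. Cadm4 was at 49.0, 3.82 and 39.4 CPM in shControl, against 6.05, 16.9 and 5.05 CPM in shThoc1 (log2 fold change −1.72, edgeR adjusted p = 0.385), and Cadm2 at 19.1, 0.797 and 18.8 CPM and 2.22, 5.23 and 1.49 CPM (log2 fold change −2.12, edgeR adjusted p = 0.370). Cadm3 did not share this order, at 6.09, 0.239 and 1.90 CPM and 5.28, 6.12 and 1.63 CPM (log2 fold change 0.66, edgeR adjusted p = 0.747).

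Sstr2, the somatostatin receptor used for imaging and radioligand therapy of neuroendocrine tumours, was lower in every shThoc1 library than in any control. Its levels were 13.2, 1.99 and 4.03 CPM in shControl, against 1.18, 0.889 and 0.817 CPM in shThoc1. The 3 shThoc1 libraries lay close together, and the spread was within shControl. The means were 6.42 ± 5.99 and 0.963 ± 0.193 CPM (SD, n = 3 each), with a log2 fold change of −2.72 (SE 0.78, edgeR unadjusted p = 0.0131, adjusted p = 0.304). Without shControl replicate 1, the library with the highest level, it was −1.70. The exact permutation test, two-sided over the 20 ways to split 3 against 3 libraries, gave its smallest possible p of 0.1. The authors' deposited table gave −2.76 with an adjusted p of 0.0243. The 4 paralogues Sstr1, Sstr3, Sstr4 and Sstr5 had 0 to 13 counts in a library and were not tested, so Sstr2 was the somatostatin receptor with usable counts in these lungs.

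Cd276, the B7 family target, was the surface target with the smallest p. It was present at 30.7, 12.2 and 31.3 CPM in shControl, against 4.03, 6.62 and 4.31 CPM in shThoc1. The lowest control was above the highest shThoc1 library, and both groups had their outlying value in replicate 2. The means were 24.7 ± 10.9 and 4.99 ± 1.42 CPM (SD, n = 3 each), 20.2% of the control level, with a log2 fold change of −2.31 (SE 0.46, edgeR unadjusted p = 0.00224, adjusted p = 0.304). Leaving out each library in turn kept it between −2.63 and −2.11, the narrowest range of the 6 lower genes, and the exact two-sided permutation test gave p = 0.1. The authors' deposited table gave −2.34 with an adjusted p of 0.000513. Markers of fibroblasts, cells on which Cd276 is also known, summed to 2529 to 8362 CPM in shControl, against 1839 to 2759 CPM in shThoc1. The highest sum was in shControl replicate 2. Of these 12 fibroblast markers 8 lay below 0 and 4 above 0 in log2 fold change. Col1a1, Col3a1 and Fn1 were at −2.23, −2.07 and −1.59, whereas Dcn was at 1.43, higher in shThoc1 without overlap. The part of fibroblasts in the level of Cd276 was not tested. The antisense transcript Gm10657 overlaps 11.4% of its exonic length, and the strandedness of the counting is not given in the sources used here.

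Other B7 family genes had the opposite sign. Vsir (VISTA), a checkpoint molecule of myeloid and T cells, stood at 40.6, 62.5 and 39.1 CPM in shControl, against 125, 95.2 and 108 CPM in shThoc1, without overlap (log2 fold change 1.21, edgeR unadjusted p = 0.00252, adjusted p = 0.304). Icosl, the ligand of the T cell costimulator ICOS, stood at 15.1, 14.8 and 15.7 CPM and at 30.0, 107 and 30.3 CPM, also without overlap (log2 fold change 1.87, edgeR adjusted p = 0.304). Its value of 107 CPM was in shThoc1 replicate 2, the library with 1161 CPM of T cell markers, and the part of these cells was not tested. Cd274 (PD-L1) overlapped between the groups, at 36.8, 15.3 and 7.84 CPM and 27.4, 60.8 and 31.0 CPM (log2 fold change 0.99, edgeR adjusted p = 0.426).

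Epcam, the epithelial target, had the highest level per length. It was present at 36.1, 74.1 and 53.1 CPM in shControl, against 66.4, 138 and 74.5 CPM in shThoc1. Both groups had their highest level in replicate 2, and shControl replicate 2 lay within the shThoc1 range. The means were 54.4 ± 19.0 and 92.9 ± 39.1 CPM (SD, n = 3 each), 171% of the control level, with a log2 fold change of 0.77 (SE 0.39, edgeR adjusted p = 0.357), or 0.31 without shThoc1 replicate 2. Of 17 other epithelial genes, 15 lay above 0 in log2 fold change, the list median was 0.54 and 1 was at an unadjusted p under 0.05. That gene, Spint2, an epithelial protease inhibitor, stood at 101 ± 19.2 and 150 ± 22.8 CPM, and Ocln, of tight junctions, at 32.0 ± 11.0 and 59.7 ± 23.2 CPM (SD, n = 3 each).

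Per length of exon, the order of the surface targets in shControl was Epcam with 24.8 CPM per kilobase, Cadm1 with 7.59, Ncam1 with 7.16, Cd276 with 6.76, Dll3 with 3.63, Sez6l2 with 3.48, Sstr2 with 2.99 and Sez6 with 1.71. Only the step from Epcam to Cadm1 was larger than the range of the libraries, and all other neighbours in that order overlapped. In shThoc1 Epcam came first with 42.3 CPM per kilobase and Cadm1 second with 11.2, and then Cd276 followed at 1.36. From Cd276 down to Dll3 at 0.583, Ncam1 at 0.474, Sstr2 at 0.449, Sez6l2 at 0.435 and Sez6 at 0.171, neighbours overlapped in their ranges. Epcam and Cadm1 were thus separated from the other 6 genes in shThoc1.

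**Figure D2:**
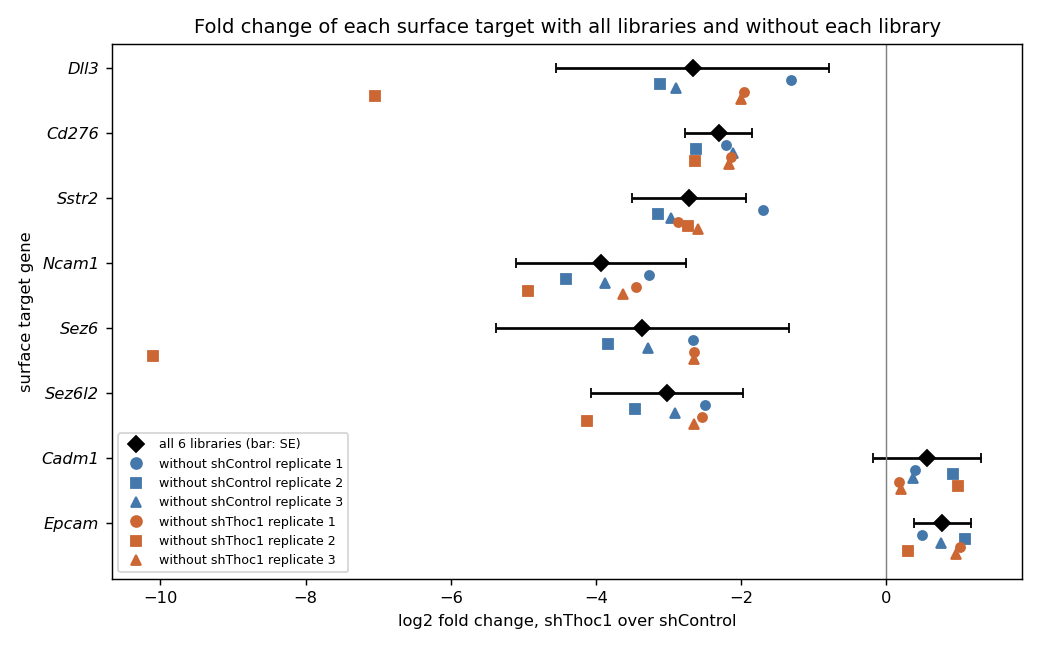
Log2 fold change, shThoc1 over shControl, of each surface target with all 6 libraries (black diamond, bar 1 SE) and without each library in turn (coloured markers). Cd276 stays between −2.63 and −2.11, while Dll3 spans −7.05 to −1.31, and the far left point of Sez6 is a fit in which both remaining shThoc1 libraries were at 0 and is no bound.

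The 6 lower surface targets differed in where the replicate 2 libraries stood. For Dll3, Ncam1, Sez6 and Sez6l2 the order from the highest down was shControl replicate 1, shControl replicate 3, shThoc1 replicate 2 and shControl replicate 2, with shThoc1 replicates 1 and 3 the lowest. For Ncam1 the replicate 2 libraries were nearly tied, at 82 counts (8.10 CPM) in shThoc1 and 83 counts (6.61 CPM) in shControl. The median log2(CPM + 0.5) of the 38 neuroendocrine markers was 6.08, 1.93 and 6.16 in shControl and 0.17, 3.81 and 0.44 in shThoc1, also with shThoc1 replicate 2 above shControl replicate 2. Cd276 and Sstr2 did not follow, since both were lower in shThoc1 replicate 2 than in shControl replicate 2. The log2 fold change was below 0 for 38 of 38 neuroendocrine markers, their median was −2.98, and 10 were at an unadjusted p under 0.05, and the 2 with the smallest p were Vgf, a secreted neuropeptide precursor, at 4.93 ± 3.68 and 0.188 ± 0.267 CPM, and Kif1a, a motor of synaptic vesicle precursors, at 81.2 ± 59.4 and 12.4 ± 3.42 CPM (SD, n = 3 each). Among these markers Stmn3, Elavl3, Dcx, Nol4, Nefl and Nefm were at 0 in shThoc1 replicate 1, and Vgf, Pcsk2, Nol4 and Nefl in shThoc1 replicate 3.

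**Figure D3:**
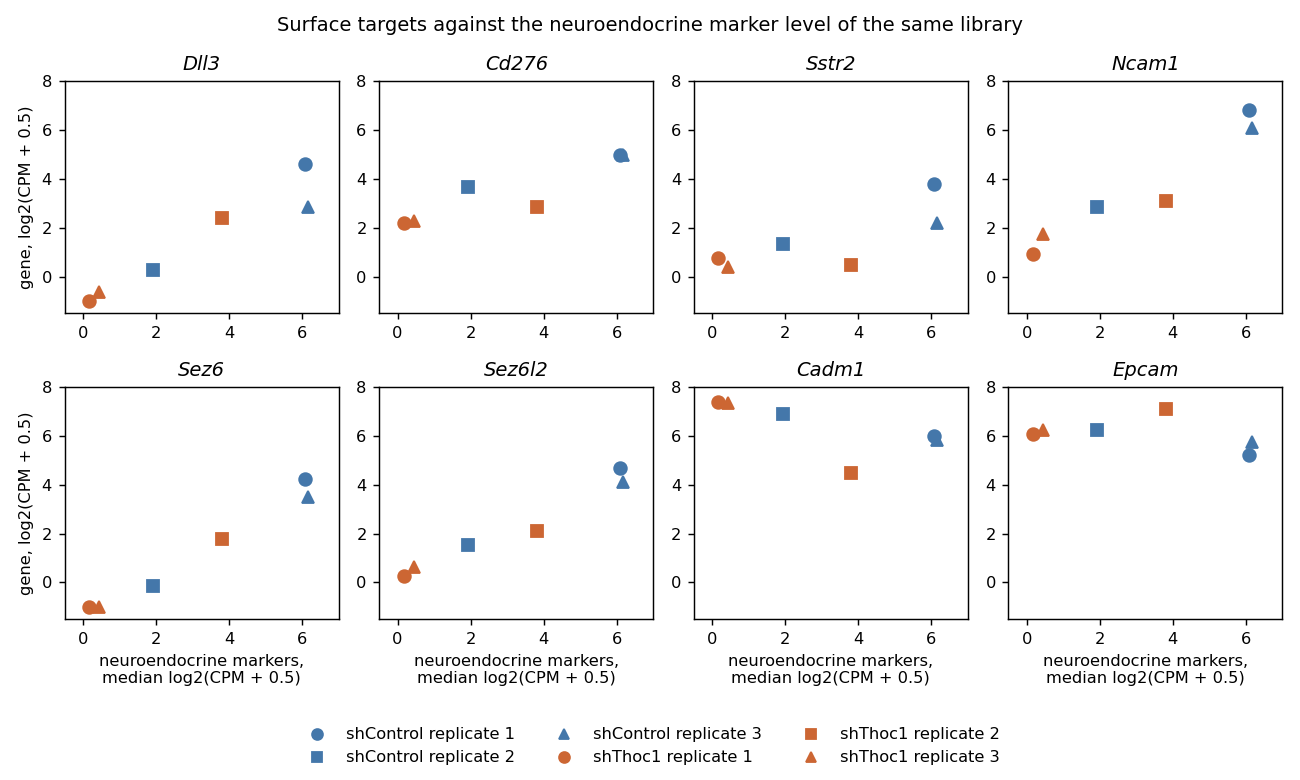
Level of each surface target as log2(CPM + 0.5) (vertical) against the median log2(CPM + 0.5) of 38 neuroendocrine markers in the same library (horizontal), with 1 point per library, blue for shControl and orange for shThoc1. Dll3, Ncam1, Sez6 and Sez6l2 climb with the markers through both squares (replicate 2 of each group, at 1.93 and 3.81), whereas Cd276 and Sstr2 are lower at 3.81 than at 1.93 and Cadm1 and Epcam do not climb. The step of Ncam1 between the squares is small (6.61 and 8.10 CPM).

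Each surface target was therefore also set against the neuroendocrine marker level of its own library, as a difference of log2 values. For Ncam1 this relative level was 0.52 ± 0.53 in shControl and 0.45 ± 1.03 in shThoc1 (SD, n = 3 each), a difference of −0.07 (exact two-sided permutation p = 0.9). The differences were 0.66 for Sez6 (p = 0.2), 0.81 for Sez6l2 (p = 0.3), 1.14 for Cd276 (p = 0.2) and 1.37 for Sstr2 (p = 0.4), by the same exact permutation test, and in each case the groups overlapped. Leaving out 1 library, the difference ran from 0.61 to 2.10 for Cd276, from 0.53 to 2.57 for Sstr2 and from 0.42 to 1.43 for Sez6l2, with the highest value without shThoc1 replicate 2 each time. Without shControl replicate 2 it was 2.10 for Cd276, 2.21 for Sstr2 and 1.25 for Sez6l2. For Sez6 it ran from 0.42, without shControl replicate 3, to 0.89, without shThoc1 replicate 2. Dll3 had a difference of 0.94 with no overlap (exact permutation p = 0.1), but its count was 0 and 2 in shThoc1 replicates 1 and 3, and with a pseudocount of 0.1 in place of 0.5 the difference was 0.23 (exact permutation p = 0.6). Without shControl replicate 3 it was 0.36. The differences were largest for Epcam and Cadm1, at 4.00 and 3.41 (exact permutation p = 0.2 each). Without shThoc1 replicate 2 they were 4.85 and 5.55, and without shControl replicate 2 they were 5.65 and 5.13. With 8 genes and a smallest possible p of 0.1, none of these differences could pass 0.05.

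The level of the 17 epithelial genes served as a further reference. It was 4.80, 5.50 and 5.19 in shControl and 6.33, 6.01 and 6.04 in shThoc1, as median log2(CPM + 0.5). Relative to it Cd276 was lower in shThoc1 by a difference of −3.08, Sstr2 by −2.85 and Ncam1 by −4.29, each with no overlap between the groups (exact two-sided permutation p = 0.1 each). For Epcam, itself epithelial, the difference was −0.21, and for Cadm1 −0.81, both with overlap.

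Patterns were compared between genes by the root mean square difference of their centred log2(CPM + 0.5) values over the 6 libraries, in which 0 is the same pattern. Among the surface targets the closest pair was Dll3 and Sez6 at 0.41, followed by Ncam1 and Sez6l2 at 0.53, Sez6 and Sez6l2 at 0.56, and Sez6 with Ncam1 and Cd276 with Sstr2 at 0.57 each. Cadm1 was 1.34 from Epcam and 1.69 to 2.88 from the other 6. These are descriptions over 6 libraries that differ in depth and in cell markers, which enter the patterns of all genes, and they say nothing of shared control.

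**Figure D4:**
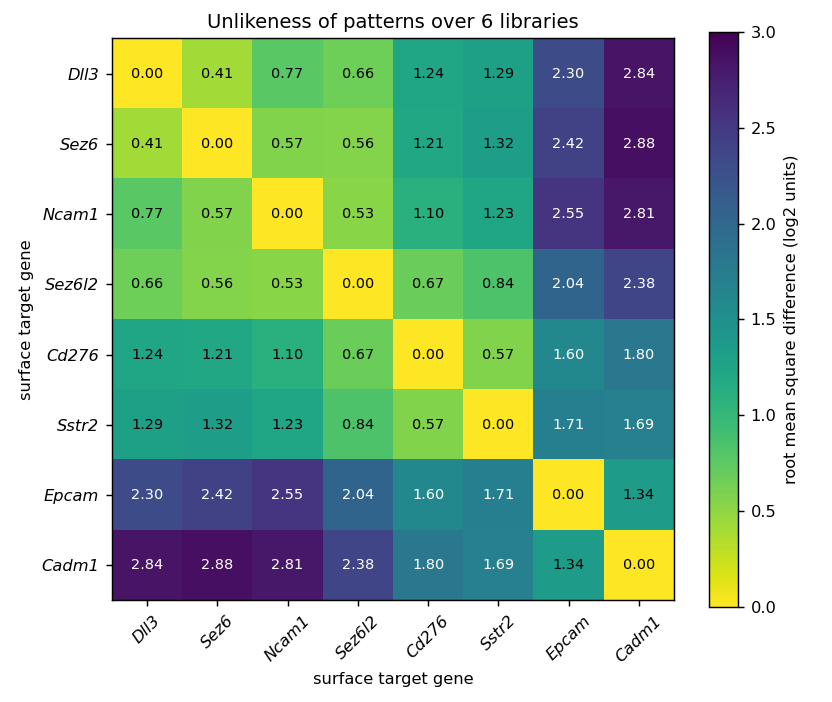
Root mean square difference, in log2 units, between the centred patterns of each pair of surface targets over the 6 libraries, printed in each cell and shaded. Small values lie among Dll3, Sez6, Ncam1 and Sez6l2 (Dll3 with Sez6, 0.41) and between Cd276 and Sstr2 (0.57), and the largest ones lie between the first 4 genes named and Cadm1 or Epcam (Cadm1 with Sez6, 2.88). These are not separate blocks, since Cd276 is closer to Sez6l2 (0.67) than Dll3 is to Ncam1 (0.77).

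By the same measure among 15001 other genes with a mean of at least 1 CPM, the nearest to Dll3 were Cacna1b, a neuronal calcium channel, at 0.18, Srrm4, a splicing factor of neurons, at 0.27, and Vat1l at 0.32. Nearest to Sez6 were Bsn, a scaffold of the presynapse, at 0.15, Elovl2 at 0.19 and Astn1 at 0.20, and nearest to Sez6l2 were Tmem169 at 0.14, Pdzd4 at 0.15 and Ajm1 at 0.18. Ncam1 had Jph4 at 0.31, Kif5a, a neuronal kinesin, at 0.34 and Mmp24 at 0.35. For Cd276 they were Slc7a5, a transporter of large amino acids, at 0.068, Glt1d1 at 0.13 and Rhobtb3 at 0.18, and for Sstr2 the long noncoding RNA Meg3 at 0.097, Fam171a2 at 0.24 and Mid1 at 0.24. Cadm1 was nearest to Csgalnact1 at 0.055, Ablim3 at 0.072 and Lrp4 at 0.075, and Epcam to Lypd6b at 0.10, Nlrp10 at 0.12 and Klhdc1 at 0.14.

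**Figure D5:**
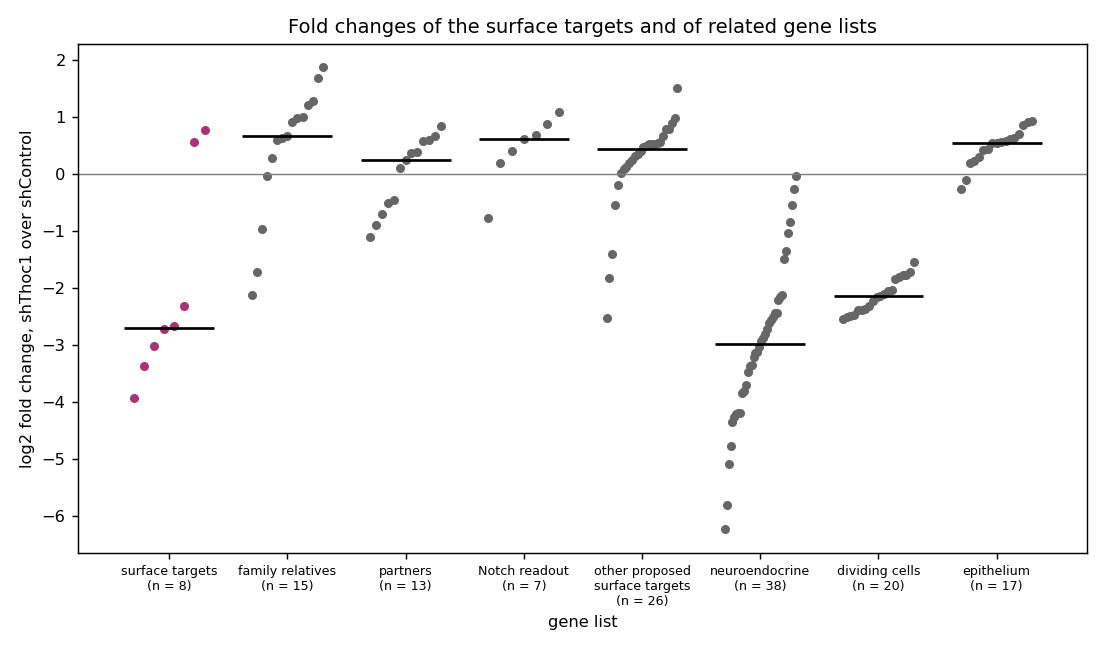
Log2 fold change, shThoc1 over shControl, of every tested gene in the surface targets and 7 related lists, sorted within each list, with the list median as a bar. The surface targets (median −2.70) split into 6 genes between −3.93 and −2.31 and 2 above 0, and the neuroendocrine and dividing cell lists lie below 0 while the other 5 lists have medians above 0.

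Genes related to the surface targets by family or function did not share their median. Of the 21 family relatives 15 were tested, 4 below and 11 above 0, with a median log2 fold change of 0.66 and an unadjusted p under 0.05 for 1 lower gene (Jag2) and 2 higher genes (Icosl and Vsir). Of the 13 tested partners 5 were below and 8 above 0, with a median of 0.24. Bace1, a protease known to cleave Sez6, was the partner with the smallest p, at 52.9, 40.2 and 51.2 CPM in shControl, against 37.2, 31.3 and 33.2 CPM in shThoc1, without overlap (log2 fold change −0.50, edgeR unadjusted p = 0.0370, adjusted p = 0.304). Somatostatin itself (Sst) was listed as a partner but was not among the genes of the count table. Cort and Crtam, a further somatostatin receptor ligand and the Cadm1 receptor of lymphocytes, had too few counts to be tested.

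Among 26 tested genes of other surface targets proposed in lung or neuroendocrine cancer, 5 were below and 21 above 0, with a median of 0.43. The lower genes at an unadjusted p under 0.05 were Tfrc, the transferrin receptor, and Gpc2, an oncofetal glypican. Tfrc stood at 344, 138 and 502 CPM in shControl, against 102, 108 and 66.6 CPM in shThoc1 (log2 fold change −1.83, edgeR adjusted p = 0.304), and Gpc2 at 12.5, 5.10 and 5.05 CPM and 3.13, 2.57 and 2.82 CPM (log2 fold change −1.41, edgeR adjusted p = 0.304). Both separated the groups. The higher ones were Ceacam1, Cd47, the signal against phagocytosis, and the receptor Met. Ceacam1, the adhesion molecule with the smallest p of this list, stood at 35.1 ± 9.91 and 69.2 ± 8.37 CPM (SD, n = 3 each, log2 fold change 0.98, edgeR adjusted p = 0.304).

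Genes of dividing cells were read beside the lower surface targets. Their log2 fold change was below 0 for 20 of 20 genes, the median was −2.15, and 10 reached an unadjusted p under 0.05. Their sum was 1176 to 2359 CPM in shControl, against 105 to 1044 CPM in shThoc1, with the highest shThoc1 value in replicate 2. Those with the smallest p were Anln, of the contractile ring, at 62.7 ± 5.84 and 17.5 ± 10.5 CPM, and the mitotic kinase Aurkb, at 21.9 ± 7.44 and 3.89 ± 3.75 CPM (SD, n = 3 each). The part of the neuroendocrine and dividing cells in the levels of the surface targets was not tested.

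The calls depended on how the spread of the libraries was handled. An unadjusted p under 0.05 was reached in the lower direction by 3 surface targets without shControl replicate 1, where 3.9% of all tested genes reached it, by 3 without shControl replicate 3 (3.79%) and by 3 without shThoc1 replicate 1 (2.72%). It was reached by 4 without shControl replicate 2 (12.3%) and by 2 without shThoc1 replicate 3 (2.58%). Without shThoc1 replicate 2 it was reached by all 6 lower genes, beside 21.2% of all tested genes, and by Cadm1 in the higher direction, beside 11.5%. No surface target had an adjusted p under 0.05 in edgeR's quasi-likelihood test in any of these 6 fits, and the lowest was 0.0564, without shThoc1 replicate 2. The sign of all 8 log2 fold changes was the same in these fits.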

How the data were processed

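RNA from 6 mouse lung libraries was purified with an RNeasy kit and made into libraries with a NEBNext Ultra kit, per the labels' protocols. The build was GRCm39, per the submitters' processing notes, while aligner, counting tool and strandedness were not given in the sources used here. The authors deposited raw counts per gene and library, together with log2 fold changes, standard errors, p-values and adjusted p-values, per the file headers in the form of DESeq2. The authors' table also holds a mean normalized signal and a test score per gene, per the file headers, neither of which was used. Coordinates and exon lengths come from build GRCm38 (GENCODE and RefSeq), for description only.

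Groups are those of the labels. Replicate numbers follow record order and pair nothing. Every pair of libraries differed beyond sampling noise, with a smallest chi-square per degree of freedom of 20.4. Genes were tested with edgeR 4.0.16 (R 4.3.3) by its robust quasi-likelihood test after filterByExpr and TMM scaling, and p-values were adjusted by the Benjamini-Hochberg method for the 15287 genes kept, while 4352 genes with low counts were not tested. The common biological coefficient of variation was 0.480. Exact permutation tests (scipy 1.17.1) used log2(CPM + 0.5). A list level is the median of its genes. The code was tested on simulated counts. Alternatives used DESeq2 1.42.0 and limma 3.58.1. The surface targets and 18 other gene lists, 236 entries of which 235 were in the table, were chosen with earlier results of these data known. Genes named from a list were the 2 with the smallest p, and from the lists of relatives, partners, Notch readout and other targets also those with no overlap or an unadjusted p under 0.05, provided the log2 fold change was 1 or more in size. The 3 nearest patterns per surface target were named, and other genes were chosen after their values were seen. Floors cover counting error only.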

Additional observations from a re-analysis of the deposited data

How the results depend on the processing

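With 3 libraries in a group, 1 library can set a value, and the depth of the 0 counts in Dll3 and Sez6 limits their fold changes. DESeq2 called 929 genes (3.82% of those tested lower and 2.12% higher), 4 surface targets among them, all lower, with log2 fold changes of −2.34 for Cd276, −2.76 for Sstr2, −3.95 for Ncam1 and −3.04 for Sez6l2. Limma's voom with sample quality weights, which gave shThoc1 replicate 2 a weight of 0.139 and shThoc1 replicate 3 one of 4.42, called 6817 genes (24.2% lower and 20.4% higher). Of the surface targets it called 6 lower (Dll3 −6.57, Cd276 −2.71, Sstr2 −2.81, Ncam1 −4.89, Sez6 −7.97 and Sez6l2 −4.12) and 2 higher (Cadm1 1.27 and Epcam 0.67). With 1 library left out, edgeR called 0 to 258 genes, the latter without shThoc1 replicate 2, and 0 surface targets.

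Levels relative to the neuroendocrine markers changed sign when the epithelial genes were the reference, to −3.28 for Dll3, −3.08 for Cd276, −2.85 for Sstr2, −3.56 for Sez6, −3.41 for Sez6l2, −0.81 for Cadm1 and −0.21 for Epcam. A pseudocount of 0.1 gave 0.098 for Ncam1 and −0.30 for Sez6. Leaving out 1 library, the relative level of Ncam1 differed by −0.49 to 0.50, and the mean log2 level of Cadm1 by −0.33 to 1.13. The cause was not tested. DESeq2 size factors, upper quartile scaling, both other filters and summing shThoc1 replicates 2 and 3, whose titles share a first number and which could come from 1 animal, changed no call and no sign of a surface target's log2 fold change. Of the surface targets' log2 fold changes under the alternatives, 92 kept direction and side of the threshold and 12 newly passed it. Of the differences of log2 levels, 137 kept their sign and 15 changed it. No paired analysis was possible because the labels give no replicate numbers that the groups share.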

Other observations

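Markers of further cell types were summed in each library. B cell markers summed to 209 to 288 CPM in shControl and 481 to 1698 CPM in shThoc1, and natural killer cell markers to 5.34 to 12.1 and 15.4 to 46.3 CPM. Myeloid markers summed to 1904 to 3414 and 3353 to 6841 CPM, but Lyz2 alone made up most of each sum, at 1772 to 3144 and 3186 to 6538 CPM. The myeloid list level, a median of log2 values, overlapped, at 4.95, 4.52 and 4.04 in shControl and 5.04, 4.19 and 4.57 in shThoc1. Of the 8 myeloid genes 6 lay above 0 in log2 fold change. The 2 below 0 were Adgre1 at −0.15 and Mrc1 at −0.42. Mast cell markers stood at 0.420 to 2.15 and 2.01 to 28.7 CPM, with the highest sum in shThoc1 replicate 2. Airway markers summed to 8426 to 19468 and 15372 to 28341 CPM. Most of each airway sum was Scgb1a1, at 6756 to 14035 and 8985 to 21908.5 CPM. Of the 10 airway genes 8 lay above 0 in log2 fold change, and the 2 below 0 were Foxj1 at −0.04 and Ccdc39 at −0.02. Schwann cell markers, a type that carries Ncam1 in nerves, summed to 53.0 to 86.5 and 56.5 to 133 CPM, and heart muscle markers to 28.2 to 502 and 254 to 396 CPM. Most of each Schwann cell sum was Mbp, at 47.0 to 77.3 and 49.9 to 111 CPM.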
